A study of Mus musculus with 12 samples.

Results

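The macrophage genes Adgre1, Aif1, Cd14 and Chil3 were followed in the 2 cell fractions sorted from mouse B16 melanomas. They were chosen by symbol, as every probe that the platform annotation assigns to 1 of the 4, which gave 9 of the 25697 probes in the deposited table and 4 of the 7894 genes tested. Adgre1 and Chil3 had 3 probes each, Aif1 had 2 and Cd14 had 1. All 9 probes passed the low-signal filter, a detection p-value below 0.01 on at least 2 of the 12 arrays. The probe with the highest mean over all arrays stood for its gene.

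B16 is a melanoma line of C57BL/6 origin, and the cells carried tdTomato, a red fluorescent protein. Each replicate pooled the digested tumors of 3 C57BL6 mice, injected subcutaneously in the right flank with 25000 cells and harvested once tumors measured 100 to 400 mm3. Flow cytometry then split each pool into tdTomato-negative cells, called microenvironment here, and tdTomato-positive cells, called tumor, and total RNA of each fraction was hybridised to an Illumina bead array. The groups were microenvironment from F4 tumors (pools A, B, C and D), microenvironment from F0 tumors (pools B2 and B3), tumor from F4 tumors (the same 4 pools) and tumor from F0 tumors (the same 2 pools). F4 cells are labelled as having acquired resistance to earlier checkpoint inhibitor (CI) therapy and as growing under CI. F0 cells are labelled as never treated with CI, before or at harvest, whereas the treatment protocol states that mice of both lines received an identical course of 3 CI injections with Fvax, a vaccine of Flt3 ligand-expressing B16 cells. The F4 minus F0 comparison is therefore one of cell lines whose treatment in the host is stated in conflicting ways. The pools of a line are different mice given cells of that 1 line, so the spread between pools does not cover a spread between lines.

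Macrophages are phagocytes that arise from embryonic precursors or from blood monocytes, and in tumors they clear debris, present antigen and secrete cytokines. They sense bacterial products and cell damage through pattern recognition receptors, and their gene programme shifts with the signals around them. Adgre1 encodes an adhesion G protein-coupled receptor used as a surface marker of mouse macrophages. Aif1 encodes IBA1, a calcium- and actin-binding protein of macrophages and microglia. Cd14 encodes the co-receptor that hands lipopolysaccharide to TLR4 and MD-2, and Chil3 encodes Ym1, a secreted chitinase-like protein that marks alternatively activated mouse macrophages and is also made by neutrophils.

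Between 6808 and 9387 probes were detected on the microenvironment arrays and between 8995 and 10308 on the tumor arrays. Raw signals averaged 156 to 259 on the microenvironment arrays and 250.5 to 519 on the tumor arrays. The melanocyte gene Mlana measured 10.90 to 13.57 log2 units on the microenvironment arrays and 12.99 to 14.11 on the tumor arrays. The T cell receptor chain gene Cd3e measured 7.95 to 12.07 on the microenvironment arrays and 4.32 to 9.69 on the tumor arrays. The highest Cd3e and the lowest Mlana among the tumor arrays were both on the F4 pool A array. On that array the 8 skeletal muscle genes of a marker list averaged 8.17, against 5.03 to 5.37 on the other 5 tumor arrays, so it stood apart from its group, and results that rest on it are given with and without it. The microenvironment arrays of F4 pool D and F0 pool B3 also stood apart, with melanocyte list means of 9.92 and 9.83, against 7.32 to 8.57 on the other 4 microenvironment arrays. The 2 fractions were also hybridised on separate chips, and an effect of the chip cannot be told apart from one of the fraction. In bulk RNA of a sorted fraction, fewer cells of a type and less RNA per cell cannot be told apart.

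Values are log2 normalized signals unless raw signal is named, and differences are microenvironment minus tumor unless stated otherwise. The pattern shared by all 4 genes was a higher signal in the microenvironment than in the tumor fraction in 5 of the 6 pools and a lower one in F4 pool A. Under scaling to a common array median the median difference of the 4 genes was -0.26 in F0 pool B2, so that it lay above 0 in 4 of the 6 pools. In F4 tumors Cd14 and Chil3 were higher in the microenvironment fraction, by 7.57-fold and 6.95-fold. Adgre1 and Aif1 did not pass the test in F4, and in F0 tumors no member did. No member passed the test between F4 and F0 in either fraction.

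Cd14, the receptor subunit, measured 11.02, 12.16, 12.54 and 10.80 in the microenvironment of F4 pools A, B, C and D, and 11.15, 8.59, 8.82 and 6.28 in the tumor fraction of the same pools. In F0 it measured 10.81 and 10.78 in the microenvironment of pools B2 and B3, and 8.83 and 5.98 in the tumor fraction. The 6 microenvironment values lay within 10.78 to 12.54 while the 6 tumor values ran over 5.98 to 11.15, and the tumor value of F4 pool A was the only one to reach the microenvironment range. Cd14 was detected on all 12 arrays. Its difference in F4 was 2.92 ± 0.91 log2 units (SE), with an adjusted p of 0.0415 (limma), and leaving out the tumor array of pool A raised it to 3.73 (limma adjusted p = 0.00812). In F0 the difference was 3.39 ± 1.28 (SE), or 10.5-fold, with a limma adjusted p of 0.148.

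Chil3, the secreted lectin-like product, measured 6.82, 8.33, 8.68 and 8.14 in the microenvironment of F4 pools A to D, and 7.18, 4.49, 4.68 and 4.41 in the tumor fraction. In F0 it measured 6.97 and 9.06 in the microenvironment of B2 and B3, and 4.90 and 4.47 in the tumor fraction. It was detected on all 6 microenvironment arrays and on 1 of the 6 tumor arrays, that of F4 pool A. The difference in F4 was 2.80 ± 0.67 (SE), with a limma adjusted p of 0.0215. Without that array no F4 tumor array detected Chil3, so the fold is given as a bound on these normalized signals, at least 7.13-fold. The limma adjusted p was 0.00211 on the measured group means of 7.99 and 4.53. In F0 the signal was not well above background on either tumor array, and the bound on the normalized signals was at least 7.21-fold. Each bound sets the microenvironment mean against the lowest detected signal of each tumor array. The limma adjusted p in F0 was 0.0845 on the measured group means of 8.02 and 4.69. The bounds do not cover the spread between pools or the choice of processing, so the true fold may be smaller. Without the 3 arrays that stand apart, which leaves only pool B2 in the F0 microenvironment, the F0 bound was 3.50-fold. Under scaling to a common array median the measured difference was 1.99 in F4, against 2.80, and 2.11 in F0, against 3.33.

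Aif1, the cytoplasmic actin-binding protein, measured 9.27, 10.89, 10.997 and 8.64 in the microenvironment of F4 pools A to D, and 10.39, 8.10, 7.79 and 5.46 in the tumor fraction. In F0 it measured 9.78 and 8.87 in the microenvironment of B2 and B3, and 8.13 and 5.19 in the tumor fraction. Like Cd14, it was detected on all 12 arrays, and its tumor values spread more than its microenvironment values. The difference in F4 was 2.01 ± 0.98 (SE) and did not pass (limma adjusted p = 0.128). Without the tumor array of pool A it was 2.83 and passed (limma adjusted p = 0.0319). In F0 the difference was 2.66 ± 1.38 (SE), with a limma adjusted p of 0.253.

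Adgre1, the surface receptor, measured 5.22, 7.72, 8.12 and 6.72 in the microenvironment of F4 pools A to D, and 7.65, 5.72, 6.13 and 4.66 in the tumor fraction. In F0 it measured 5.94 and 6.82 in the microenvironment of B2 and B3, and 5.75 and 5.37 in the tumor fraction. The microenvironment arrays of F4 pool A and F0 pool B2 did not detect it, whereas the tumor arrays of both pools did. Its difference was 0.90 ± 0.68 (SE) in F4 (limma adjusted p = 0.307). In F0 it was 0.82 ± 0.97 (SE; limma adjusted p = 0.584), and scaling the arrays to a common median turned that value to -0.32. Without the tumor array of pool A the F4 difference was 1.44 and did not pass (limma adjusted p = 0.0890). Without both arrays of pool A it was 2.02 and passed (limma adjusted p = 0.0183).

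**Figure D1:**
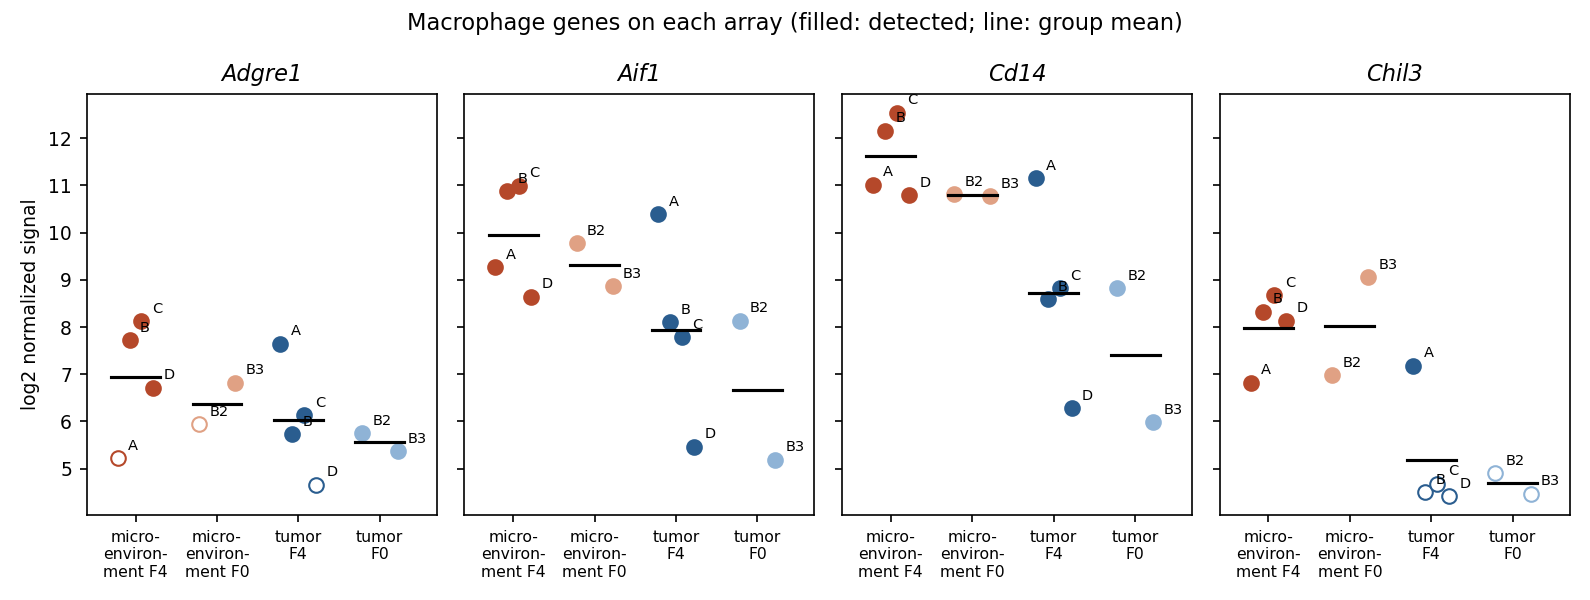
Log2 normalized signal (y axis) of Adgre1, Aif1, Cd14 and Chil3 on each of the 12 arrays, by group (x axis), with the pool written beside each point. Filled points are detected at a p-value below 0.01, open points are not, and the bars are group means; the tumor array of F4 pool A was the highest of its group in all 4 panels, and Chil3 was open on 5 of 6 tumor arrays.

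Before normalization Adgre1 was lower in the microenvironment than in the tumor fraction in 4 of the 6 pools, for example 182 against 220 in F4 pool C and 101 against 169 in F0 pool B2. Aif1, Cd14 and Chil3 were higher in the microenvironment in 4 of the 6 pools on the raw scale, all except F4 pool A and F0 pool B2. In F4 pool B the raw signal of Cd14 was 3137 in the microenvironment and 758 in the tumor fraction, and in F4 pool A it was 621 and 1541. Background correction and quantile normalization together turned the direction of all 4 genes in F0 pool B2. They also turned that of Adgre1 in F4 pool C and F0 pool B3. The effects of these steps were not separated.

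Called means a limma adjusted p below 0.05 over all 7894 genes. In F4, 2 of the 4 members were called higher in the microenvironment, beside 11.2% of all genes called higher and 13.3% called lower. The members' median difference was 2.40, against -0.20 for all genes. In F0, with 2 pools, 0 of the 4 were called, beside 0.646% of all genes called higher, and their median difference was 3.00 against -0.19 for all genes. At an unadjusted limma p below 0.05, 2 of the 4 members, Cd14 and Chil3, and 24.6% of all genes passed in F0. The microenvironment and tumor arrays of F0 did not overlap for 4 of the 4 members, a pattern that 23.6% of all genes showed in that direction. In F4 they did not overlap for 0 of the 4, against 8.96% of all genes, and without both arrays of pool A for 4 of the 4, against 22% of all genes. Without those arrays all 4 members were called in F4, beside 14.1% of all genes, and only Chil3 was called in F0 (limma adjusted p = 0.0144), beside 5.93%. Both fractions of a pool came from the same mice. With the pool as a block no member changed its call, while 503 of all genes were called in F0, against 72 without the block.

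Without the tumor array of pool A, 3 of the 4 members were called in F4, beside 15.3% of all genes. The calls in F4 also rested on other single arrays. No member was called in the limma fits without the microenvironment array of pool B or C, or without the tumor array of pool B, C or D, and 1 was called without the microenvironment array of pool A. In those fits the limma adjusted p of Cd14 was 0.0650 to 0.113, and without the arrays of pools B, C or D that of Chil3 was at most 0.0709. The count of all genes called in F4 also changed when 1 array was left out, and its range is given in the last section. Whether the members lost calls more often than other genes was not tested.

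The order of the 4 group means was the same for Adgre1, Aif1 and Cd14, with F4 microenvironment highest, then F0 microenvironment, F4 tumor and F0 tumor. Cd14 averaged 11.63 ± 0.85 (SD, n = 4) and 10.79 ± 0.03 (SD, n = 2) in the F4 and F0 microenvironment, and 8.71 ± 1.99 (SD, n = 4) and 7.41 ± 2.01 (SD, n = 2) in the F4 and F0 tumor fraction. Aif1 averaged 9.95 ± 1.18, 9.32 ± 0.65, 7.94 ± 2.02 and 6.66 ± 2.08 in the same order of groups (SD). Adgre1 averaged 6.94 ± 1.29, 6.38 ± 0.62, 6.04 ± 1.24 and 5.56 ± 0.27 (SD). For Chil3 the microenvironment means were 7.99 ± 0.81 in F4 and 8.02 ± 1.48 in F0, and the tumor means 5.19 ± 1.33 and 4.69 ± 0.30 (SD). With all arrays, each group of every member overlapped the group next in order, so no neighbouring pair was separated by its spread. Without the tumor array of F4 pool A the highest F4 tumor values were 8.82 for Cd14, 8.10 for Aif1 and 4.68 for Chil3. These lay below the lowest F0 microenvironment values of Cd14 and Aif1, 10.78 and 8.87, and the lowest F4 microenvironment value of Chil3, 6.82. Without that array 20% of all genes had every F4 microenvironment array above every F4 tumor array, as Aif1, Cd14 and Chil3 did. The share for F0 microenvironment against F4 tumor, groups that differ in line and fraction, was not counted. For Adgre1 the F4 tumor and F0 microenvironment arrays still overlapped, at 6.13 against 5.94.

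Between the lines, F4 minus F0 was 0.84 ± 1.11 for Cd14, 0.62 ± 1.20 for Aif1, 0.57 ± 0.84 for Adgre1 and -0.03 ± 0.82 for Chil3 in the microenvironment (SE). In the tumor fraction it was 1.30 ± 1.11 for Cd14, 1.28 ± 1.20 for Aif1, 0.48 ± 0.84 for Adgre1 and 0.51 ± 0.82 for Chil3. The limma adjusted p was 0.999 in the microenvironment for each member, and limma called 0 of the 4 members there, beside 0% of all genes in either direction, with 2.44% at an unadjusted p below 0.05. In the tumor fraction 0 of the 4 were called, beside 0.0127% of all genes called higher and 0.076% lower, with 2.09% at an unadjusted p below 0.05. Without the tumor array of pool A the tumor-fraction values of Adgre1 and Chil3 were -0.057 and -0.16. No member passed an unadjusted p of 0.05 in either fraction. The difference between the fraction effects of F4 and F0 was likewise called for 0 of the 4 members and 0% of all genes, with 1.23% at an unadjusted p below 0.05. It lay between -0.65 ± 1.69 for Aif1 and 0.087 ± 1.18 for Adgre1 (SE), and the interval for Aif1 ran from -4.37 to 3.07 at a confidence level of 0.95.

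The probes of a gene ran the same way in the fraction comparison but not equally far. The 2 Aif1 probes differed by 2.01 and 1.77 log2 units in F4, and neither was called. The 3 Adgre1 probes differed by 0.90, 0.53 and 0.40, and the last of them was detected on 2 of the 12 arrays. The 3 Chil3 probes differed by 2.80, 1.75 and 1.51, with limma adjusted p-values over all probes of 0.0218, 0.0465 and 0.0544. Chil3 has a near-identical neighbour, Chil4, and whether its probes also capture Chil4 RNA was not tested, so the Chil3 values are uncertain in that respect.

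The promoters of Aif1, Chil3 and Chil4 are shown because they let the near-copy be seen. A further ground was that Aif1 and Chil3 ran the same way in 6 of the 6 pools. All 4 members did so, and Aif1 and Chil3 were the least correlated pair on deviations from the group means (Pearson's r = 0.569). The RefSeq promoter table of build GRCm38.p6 held 2 of the 4 members, and Adgre1 and Cd14 are not shown. Each sequence is the 250 bases before the annotated start, on the minus strand, 5′ to 3′, at chr17:35176053-35176302 for Aif1, chr3:106167565-106167814 for Chil3 and chr3:106219480-106219729 for Chil4. Capitals mark AGGAAG, a core motif of ETS factors such as the myeloid factor PU.1, read on either strand (as CTTCCT on the printed one).
Aif1: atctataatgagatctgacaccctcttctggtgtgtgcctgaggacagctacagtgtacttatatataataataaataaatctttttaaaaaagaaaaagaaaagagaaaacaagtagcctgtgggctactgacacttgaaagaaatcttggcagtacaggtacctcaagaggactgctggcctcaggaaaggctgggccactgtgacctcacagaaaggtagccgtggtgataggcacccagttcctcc
Chil3: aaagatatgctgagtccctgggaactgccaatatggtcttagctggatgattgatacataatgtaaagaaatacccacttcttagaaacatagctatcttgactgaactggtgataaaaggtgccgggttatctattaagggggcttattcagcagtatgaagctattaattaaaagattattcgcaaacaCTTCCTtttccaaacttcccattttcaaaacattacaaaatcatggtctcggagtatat
Chil4: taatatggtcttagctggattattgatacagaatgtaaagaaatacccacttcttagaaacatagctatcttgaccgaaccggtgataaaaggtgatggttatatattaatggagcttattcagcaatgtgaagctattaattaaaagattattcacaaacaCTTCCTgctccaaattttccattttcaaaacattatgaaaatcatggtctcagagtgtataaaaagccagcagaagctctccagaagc
The Chil3 and Chil4 promoters were identical at 201 of 222 aligned positions, or 90.5%. The motif lay at -59 to -54 in Chil3 and at -88 to -83 in Chil4, each counted from that gene's own annotated start. Both copies directly follow the letters caaaca in the printed sequences, and the letter before these differs. The full motif was not found in the Aif1 window, which does hold GGAA, a shorter stretch of it. Of 32851 promoters of the same length, 29.5% held the full motif, so its presence sets neither gene apart.

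Over all 6 pools the size of the fraction difference varied between pools more than between the members, but this rested on F4 pool A. Without that pool Cd14, the most variable of the 4, ran from 1.98 in F0 pool B2 to 4.79 in F0 pool B3. That was less than the spread of the 4 genes within F0 pool B3. In F4 pool A the 4 genes ran from -2.43 for Adgre1 to -0.13 for Cd14, with Aif1 at -1.12 and Chil3 at -0.36. In F4 pool D they ran from 2.06 for Adgre1 to 4.52 for Cd14. In F0 pool B2 the range was 0.18 to 2.07, and in F0 pool B3 it was 1.45 to 4.79. Adgre1 had the lowest of the 4 values in all 6 pools.

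The median difference of a joined lymphocyte set was larger than that of the other macrophage genes in each of the 6 pools. The lymphocyte set joined lists of T cell, cytotoxic, NK cell and B cell genes, of which 32 of 56 were measured, and the other macrophage set had 17 of 30 measured. In F4 pools A, B, C and D the median difference was -1.36, 1.59, 1.40 and 2.25 for macrophage genes, and 2.28, 4.15, 4.17 and 3.88 for lymphocyte genes. In F0 pools B2 and B3 it was 0.53 and 2.15 for macrophage genes, and 5.28 and 2.50 for lymphocyte genes. Not every lymphocyte list did so. The B cell median was below the macrophage median in F4 pools B and D, at 1.19 and 2.11, and the NK cell median was below it in F4 pool D, at 1.99. The median of the 4 members was -0.74, 3.18, 3.47 and 3.45 in F4 and 1.82 and 4.14 in F0, below the lymphocyte median in 5 of the 6 pools and above it in F0 pool B3. The B3 microenvironment array had a lymphocyte list mean of 7.15, against 10.20 on that of B2, and a higher melanocyte mean. The part of that array in the result was not tested. In F4 pool A 0 of the 17 macrophage genes and 32 of the 32 lymphocyte genes were higher in the microenvironment. The count of macrophage genes higher in the microenvironment was 16, 15 and 16 of 17 in F4 pools B, C and D, and 10 and 16 of 17 in F0 pools B2 and B3. Because of pool A, 0 of 17 were higher in every pool and 10 of 17 were higher in 5 pools, whereas 31 of 32 lymphocyte genes and 16.4% of all genes were higher in every pool.

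**Figure D2:**
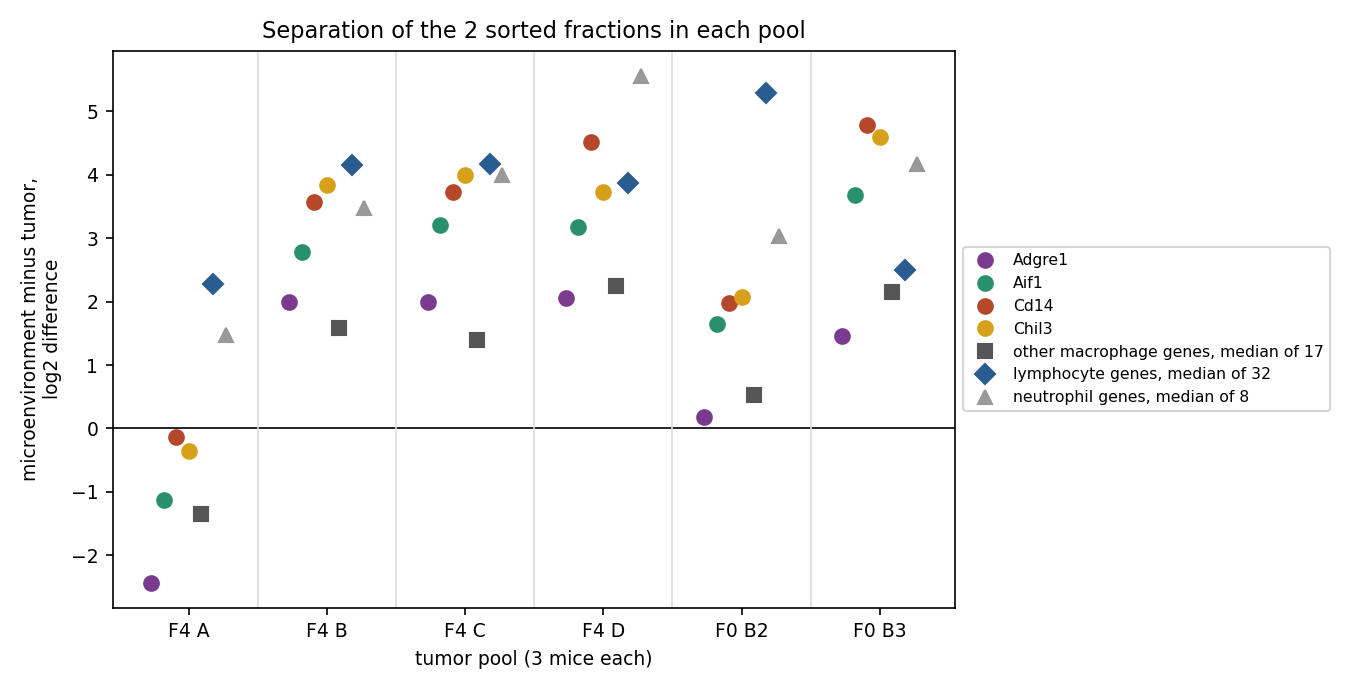
Difference between the microenvironment and tumor fractions (y axis, log2) in each of the 6 pools (x axis), for the 4 genes and for the medians of 17 other macrophage, 32 lymphocyte and 8 neutrophil genes. The 4 genes and the macrophage median lie below 0 in F4 pool A, where the lymphocyte median is 2.28 and the neutrophil median 1.47.

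On every tumor array a larger share of the macrophage genes than of the lymphocyte genes was detected. Between 11 and 17 of the 17 macrophage genes were detected on each tumor array, against 13 to 17 on each microenvironment array. For lymphocyte genes it was 2 to 24 of 32 on the tumor arrays and 24 to 32 on the microenvironment arrays. Of the 17 macrophage genes, 11 were detected on all 6 tumor arrays and none was missing from all of them, whereas 2 of the 32 lymphocyte genes were detected on all 6 and 8 on none. The mean level of the macrophage list was 8.42 to 10.01 on the microenvironment arrays and 6.52 to 9.86 on the tumor arrays, or 6.52 to 8.39 without the array of pool A. That of the lymphocyte list was 7.15 to 10.20 on the microenvironment arrays and 4.56 to 7.80 on the tumor arrays, or 4.56 to 5.45 without it. A lymphocyte gene that a tumor array did not detect has only a bound there, so its difference may be understated.

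**Figure D3:**
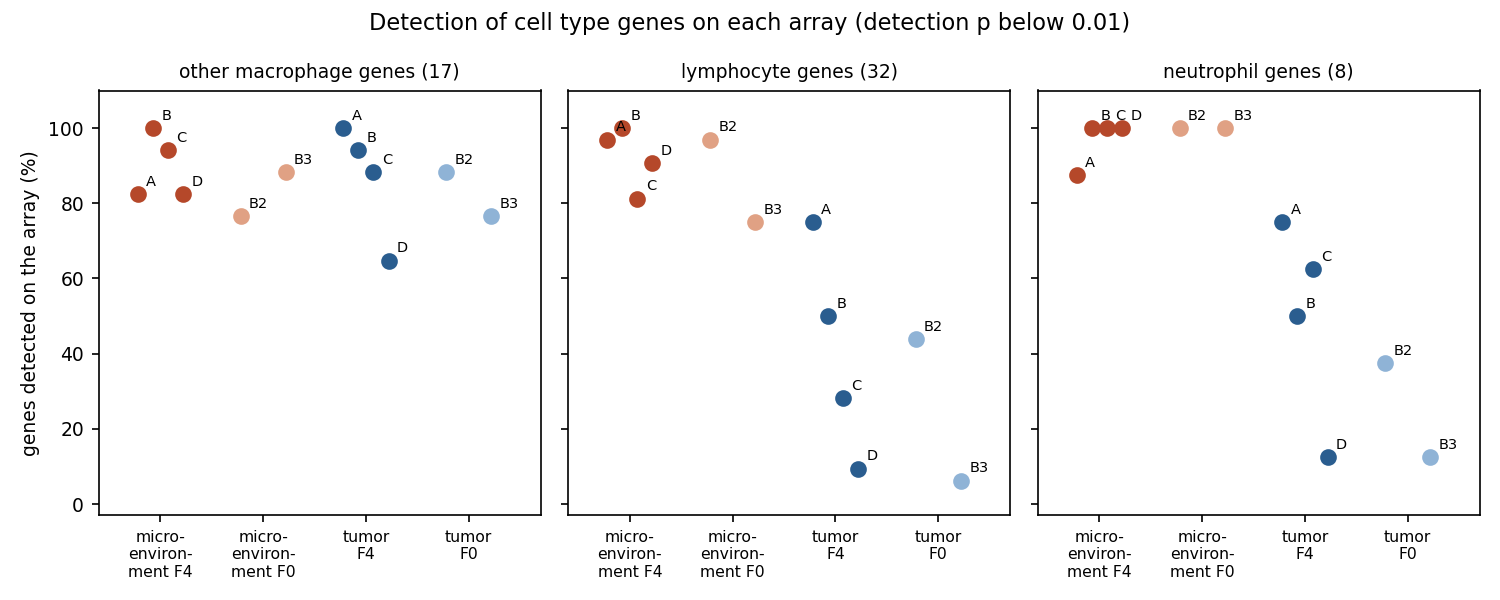
Share of the genes of 3 marker lists detected on each array (y axis, percent), by group (x axis), with the pool beside each point. Macrophage genes were detected at similar shares in both fractions, while most tumor arrays detected fewer lymphocyte and neutrophil genes than the microenvironment arrays, with F4 pool A the highest of them.

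Among the other macrophage genes, 1 of 17, or 5.88%, was called higher in F4 and 0 lower, beside 11.2% and 13.3% of all genes. A difference above 0 was seen for 16, with a median of 0.83 against -0.20 for all genes. The gene called was Clec7a, the beta-glucan receptor dectin-1, at 2.95 ± 0.75 (SE; limma adjusted p = 0.0249). Tyrobp, the signalling adaptor DAP12, had 2.26 (limma adjusted p = 0.0538), and the lysozyme genes Lyz2 and Lyz1 had 1.76 and 1.35. Spi1, which encodes PU.1, had 0.98, with detection on 3 of the 12 arrays. Apoe, the lipid carrier that macrophages secrete, had -0.66 and was the only macrophage gene below 0. It was higher in the microenvironment in 0 of the 6 pools. Mertk, the receptor for apoptotic cells, and Trem2, a lipid-sensing receptor, had the smallest differences, at 0.10 and 0.21. Mertk was detected on 2 of 6 microenvironment arrays and 6 of 6 tumor arrays. Apoe and Mertk are among the 11 macrophage genes detected on all 6 tumor arrays, and whether tumor cells contribute to their signal was not tested. Without the tumor array of pool A, 8 of the 17 were called higher, beside 15.3% of all genes, and the median was 1.38. In F0, 0 of the 17 were called, beside 0.646% of all genes called higher, and the median was 1.08. Without that array 1 was called, beside 4.98%.

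In the lymphocyte set 28 of 32 genes were called higher in F4, beside 11.2% of all genes. All 32 had a difference above 0, with a median of 3.74. Leaving out the tumor array of pool A gave 29 called, beside 15.3% of all genes, and a median of 4.57. T cell genes accounted for 14 of them, out of 14 measured, with Cd6 at 4.89 and Cd2 at 4.56. Trat1, an adaptor of the T cell receptor, had a measured difference of 2.12 and was detected on 0 of the 6 tumor arrays. Cd5, detected on 1 of them, had 2.97. Of the cytotoxic genes 7 of 8 were called, among them the perforin gene Prf1 at 4.38, of the NK cell genes 3 of 6, and of the B cell genes 4 of 4. By list the F4 medians were 4.22 for T cell, 4.23 for cytotoxic, 2.25 for NK cell and 1.95 for B cell genes, the last 2 below the members' 2.40. In F0, 4 of the 32 were called, beside 0.646% of all genes called higher, and the median was 4.11. Leaving out the F4 tumor array of pool A, which enters the shared estimate of spread, gave 21 of 32 in F0, beside 4.98% of all genes called higher, and without all 3 arrays that stand apart 31 of 32 were called, beside 13.7%. Under scaling to a common array median the F4 medians were 0.03 for macrophage and 2.75 for lymphocyte genes, with the median of all genes at -1.22. Relative to that shift they were 1.25 and 3.97, against 1.03 and 3.94 with quantile normalization. Whether the macrophage and lymphocyte sets differ was not tested, since the genes of a list share the same arrays.

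Neutrophil genes, a further source that the microenvironment fraction can hold, were called higher in F4 in 8 of 8 cases. Of all genes 11.2% were, and the neutrophil median was 3.42. Retnlg, a resistin-like gene of neutrophils, had a measured difference of 4.34 and was not detected on any tumor array, and S100a8 and S100a9, the calprotectin subunits, had 5.19 and 5.22. Between 7 and 8 of the 8 were detected on the microenvironment arrays and 1 to 6 on the tumor arrays. Their mean level was 8.25 to 9.88 on the microenvironment arrays and 4.67 to 6.89 on the tumor arrays. Cd14 and Chil3 lay nearer to the neutrophil median than to the macrophage median in F4, and nearer to the lymphocyte median of 3.74 as well. In F4 pool A they had -0.13 and -0.36, below 0 like the macrophage median of -1.36, while the neutrophil median was 1.47. The part of neutrophils in their difference was not tested. In F0, 3 of the 8 were called, beside 0.646% of all genes called higher. Without the F4 tumor array of pool A 7 of the 8 were, beside 4.98%. Of 7 dendritic cell genes 3 were called higher in F4, beside 11.2% of all genes. Of 11 melanocyte genes 0 were called higher and 1, Mlana, lower in F4, beside 13.3% of all genes called lower. Their median was -1.54. On leaving out the tumor array of pool A 8 of the 11 were called lower, beside 22.5% of all genes, with a median of -1.86.

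**Figure D4:**
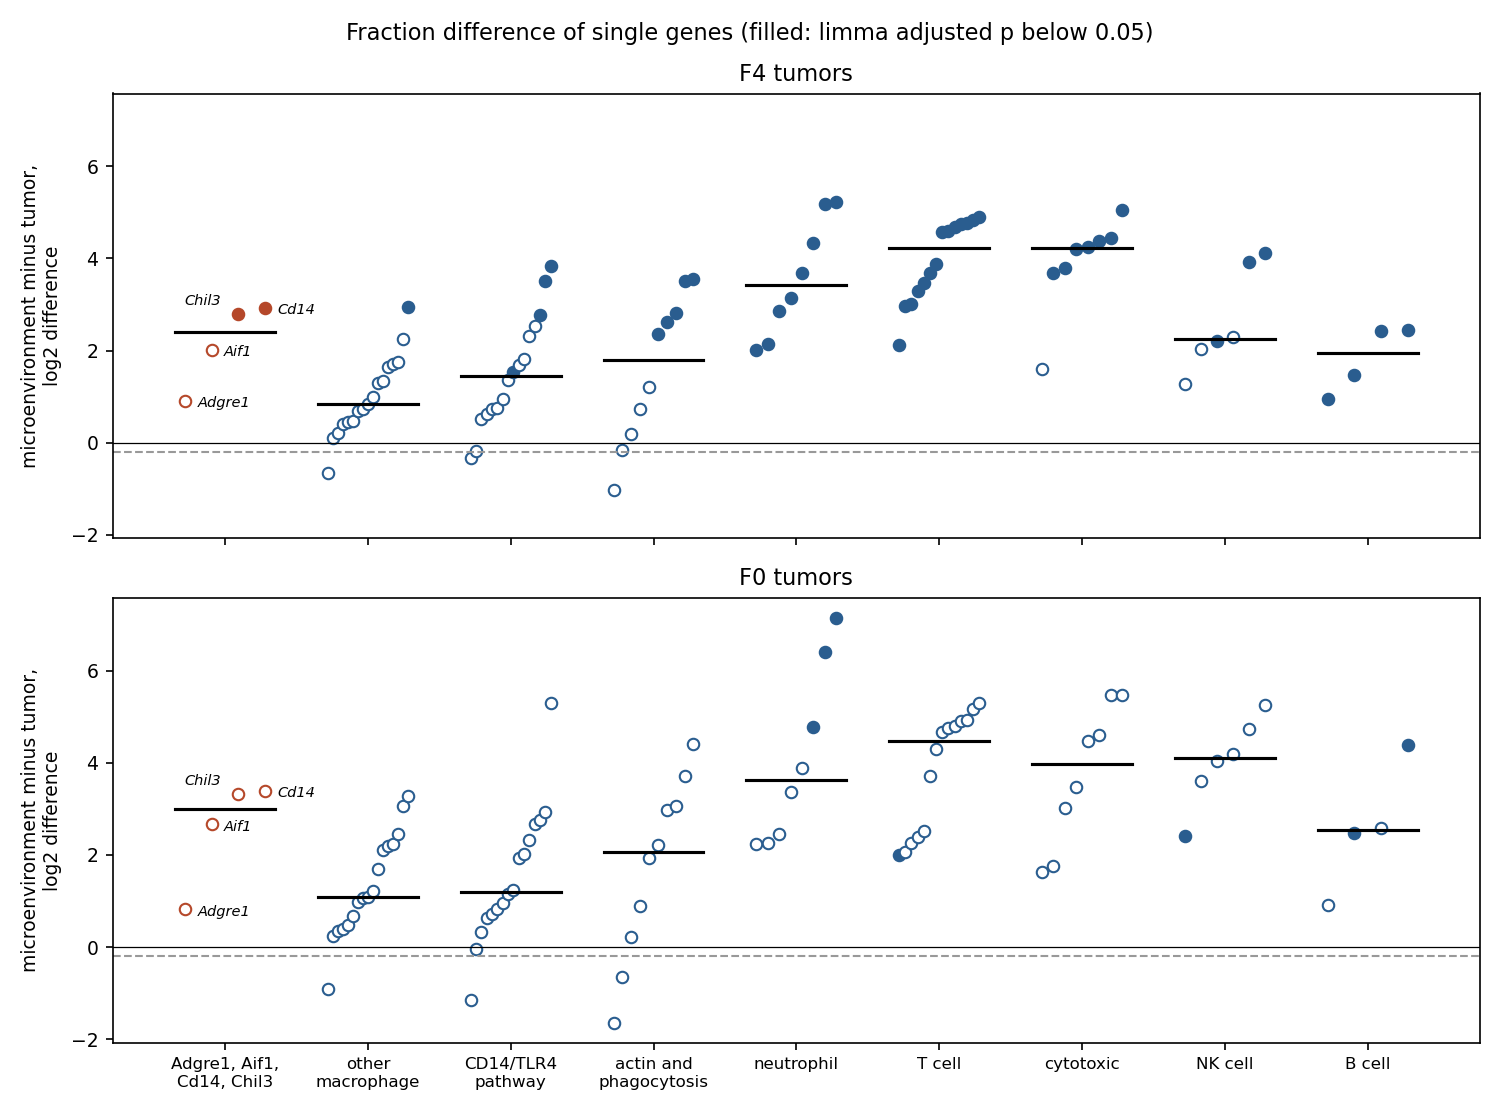
Difference between the microenvironment and tumor fractions (y axis, log2) of single genes in F4 (top) and F0 (bottom), by gene list (x axis); filled points have a limma adjusted p below 0.05, black bars are list medians and the dashed line is the median of all genes. In F4 the macrophage genes lie around a median of 0.83 with 1 filled point, and the 14 T cell genes around 4.22 with all points filled.

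For 16 measured genes of the receptor pathway that Cd14 serves, the median difference in F4 was 1.44. Of these, 4 were called higher and 0 lower, beside 11.2% and 13.3% of all genes. They were Myd88, the adaptor below the receptor, at 1.53, Nfkbia and Tnfaip3, feedback inhibitors of NF-kB, at 2.77 and 3.51, and the cytokine gene Il1b at 3.83. Tlr4, the receptor itself, had -0.34 (limma adjusted p = 0.546) and was detected on 2 of 6 microenvironment arrays and 6 of 6 tumor arrays, and its partner Ly96, which encodes MD-2, had -0.18 (limma adjusted p = 0.587). Without the tumor array of pool A 10 of the 16 were called higher in F4, beside 15.3% of all genes. In F0 0 of the 16 were called, and 1 without that array, beside 0.646% and 4.98% of all genes called higher.

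The 10 measured genes for actin regulation and phagocytic signalling belong to the setting in which Aif1 acts. In F4, 5 of them were called higher and 0 lower, beside 11.2% and 13.3% of all genes. These were the actin bundler Lcp1 at 2.37, the haematopoietic GTPase Rac2 at 3.52, the Wiskott-Aldrich gene Was at 2.62, the exchange factor Vav1 at 2.81 and Coro1a, a coronin, at 3.55. All 5 are also expressed in lymphocytes and neutrophils, so the list does not single out macrophages. The paralog Aif1l had -1.03 (limma adjusted p = 0.0723). With the tumor array of pool A left out, 7 were called higher and 1 lower in F4, beside 15.3% and 22.5% of all genes. In F0 0 of the 10 were called, and 6 were called higher without that array, beside 4.98% of all genes.

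For alternative activation, the state that Chil3 marks, 0 of 7 measured genes were called in F4, beside 11.2% of all genes called higher. All 7 had a difference above 0, with a median of 1.20. The transglutaminase gene Tgm2 had 2.51 and the arginase gene Arg1 had 2.17 (limma adjusted p = 0.0606 and 0.0985). The transcription factor gene Irf4 had 1.27, and the lectin gene Mgl2 had 1.20. Without the tumor array of pool A 2 of the 7 were called higher, beside 15.3% of all genes. In F0 0 of the 7 were called, beside 0.646% of all genes called higher. Of the Adgre family 1 further gene was measured, Adgre5, the leukocyte receptor CD97, which was called higher in F4 at 2.10 ± 0.47 (SE; limma adjusted p = 0.0188), and not in F0 at 2.26 (limma adjusted p = 0.0935). None of the 8 other chitinase family genes listed was on an annotated probe here.

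Across the 12 arrays, which share pools and chips, the members varied together. Pearson's r was 0.972 between Aif1 and Cd14, 0.870 between Cd14 and Chil3, and between 0.760 and 0.801 for the other 4 pairs. After each group's mean was subtracted it was 0.979 for Aif1 and Cd14, and 0.569 for Aif1 and Chil3, the lowest of the 6 pairs. The gene whose level was most like that of Aif1 was Ly86, which encodes the RP105 partner MD-1 (r = 0.996), followed by Pld4, Ctsh, Igfbp7 and Emcn (r = 0.982 to 0.988). For Cd14 they were Il1b (r = 0.991), Sirpb1a, Tlr2, Tgfbi and Osm (r = 0.985 to 0.989). For Chil3 they were Rasl2-9 (r = 0.969), Trem3, Clec4d, Nfe2 and Metrnl (r = 0.960 to 0.967), and for Adgre1 Slco2b1 (r = 0.965), Rab7b, Nrap, Cryba4 and Pid1 (r = 0.955 to 0.963). On deviations from the group means the closest genes were Ly86 for Aif1 (r = 0.995), Fpr2 for Cd14 (r = 0.995), Mmp12 for Chil3 (r = 0.982) and Cryba4 for Adgre1 (r = 0.975). These correlations describe 12 arrays and were picked as the highest among all genes, so no p-value is given.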

How the data were processed

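Total RNA was profiled on 12 Illumina arrays. The deposited table holds, per the file headers, the average bead signal (intensity, linear, not normalized) and a detection p-value of each probe, summarised in GenomeStudio per the submitters' processing notes. The deposited processed value table, also of intensity, was used as an alternative only, and how it was made is not given in the sources used here. Probes were named from the platform annotation (12096 of 25697), which can be old.

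Intensities were background corrected with the detection p-values, offset by 16, quantile normalized and log2 transformed (neqc, limma 3.58.1, R 4.3.3). A detection p below 0.01 was required on 2 or more arrays, which left 11224 probes, and the brightest stood for its gene (7894). A linear model with 4 group means over 12 arrays gave 5 contrasts, with moderated tests in limma and Benjamini-Hochberg adjustment over all genes (called below 0.05). Samples were grouped by the labels. The number of arrays, 4 and 2 pools a line, limits the precision, and p-values measure the spread between pools. The test was also run on simulated data with independent arrays of equal spread. Such data do not cover paired fractions or arrays of uneven quality, so that run does not bear on either.

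Pools pair the fractions, since both were sorted from the same mice. Their deviations from the group means correlated at 0.113, 0.107, -0.0720 and 0.562 in F4 pools A to D and at 0.393 in F0. The main fit has no block.

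The 4 genes, the lists and the alternatives were chosen with earlier results of these data known. Genes named from a list were up to 4 (macrophage 6) with the smallest p in the F4 fraction contrast, plus up to 2 with the smallest difference in the macrophage, Cd14 pathway and T cell lists. Coro1a and Aif1l fall outside this rule and were chosen after their values were seen. Mlana and Cd3e check the fractions. For likeness, the 5 genes with the highest Pearson correlation were taken. Lists of fibroblast, endothelial and muscle genes served to describe the fractions, with 2, 0 and 0 genes called higher in F4. Promoters were read from the RefSeq table, and figures drawn with matplotlib 3.10.9.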

Additional observations from a re-analysis of the deposited data

Results flagged for a closer look

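Chil3 measured 7.18 log2 units on the tumor array of F4 pool A, while the other 3 F4 tumor arrays lay between 4.41 and 4.68, none of them detected. The gap to the nearest of them was 0.905 of the whole range of the 4 arrays, above Dixon's critical value for a group of that size. Chance alone flags about 1 in 20 groups of normally spread values. The other 3 values lay at background, so that rate may not hold for this group. The same array was the highest of its group for Adgre1, Aif1 and Cd14 without passing that limit. It carried more macrophage, neutrophil, lymphocyte and skeletal muscle signal than the other tumor arrays. Its macrophage list mean was 9.86, against at most 8.39 on the others, and its neutrophil list mean 6.89, against at most 5.47. The part of any of these cells in the Chil3 value was not tested.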

How the results depend on the processing

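In F4, 2 members were called higher in the microenvironment. The count was 1 under scaling to a common median, 4 with array weights, 1 on the deposited processed values and 4 without both arrays of pool A, and 0 to 3 when 1 array was left out. In F0 the count of 0 became 1 (Chil3) under median scaling, with array weights, without both arrays of pool A and without the 3 arrays that stand apart, and was 0 to 1 when 1 array was left out. The last 2 of these settings were chosen after seeing the data. Over all genes the F4 count was 1939 and became 5751 under median scaling, 5899 with array weights, 4480 without those 3 arrays (F4 tumor A, F4 microenvironment D and F0 microenvironment B3) and 85 to 3270 when 1 array was left out. The share of called genes that were higher was 45.7% and 6.99% under median scaling in F4, and 70.8% and 3.52% in F0. With the replicate block 2 members were called in F4 and 0 in F0, and no member changed its call. Cd14 in F4 had 1.60 under median scaling (limma adjusted p = 0.0929) and 3.05 on the deposited values (limma adjusted p = 0.0528), outside the threshold in both. Adgre1 in F0 turned to -0.32 under median scaling. F4 minus F0 in the microenvironment turned for Chil3 to 0.18 under median scaling, 0.27 with array weights, 0.12 on the deposited values, 0.97 without the 3 arrays and 0.36 without pool A, with -1.07 to 1.02 when 1 array was left out. In the tumor fraction it turned for Adgre1 to -0.057 without the 3 arrays or pool A (-0.057 to 0.94 leaving out 1 array) and for Chil3 to -0.16 in both and to -0.067 with array weights (-0.16 to 0.76). For Aif1 and Cd14 it ran from -0.20 to 2.75 and from -0.12 to 2.73 when 1 array was left out. The difference of the fraction effects turned for Adgre1 to -0.14 on probe means and -0.34 on deposited values (-0.37 to 0.66 leaving out 1 array). With array weights, without the 3 arrays and without pool A it was 0.54, 0.15 and 0.39 for Aif1, 0.37, 0.60 and 0.55 for Cd14, and 0.34, 1.12 and 0.52 for Chil3, and it was 0.020 for Cd14 under median scaling. Leaving out 1 array gave -2.13 to 0.82 for Aif1, -1.89 to 0.96 for Cd14 and -1.58 to 0.51 for Chil3. The cause was not tested for these turns, all of values that passed no test. The lymphocyte median exceeded the members' in 4 to 5 of the 6 pools and the macrophage median in 5 to 6, over 6 alternatives. Chil3 was at background on 5 tumor arrays, which limits its fold there.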
